A study of Mus musculus with 8 samples.

Results

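The dedifferentiation and failed repair markers described here are 8 mouse genes, Vcam1, Cd44, Vim, Sox9, Sox4, Pax2, Cd24a and Akap12. They were chosen by name, as the rows of the deposited gene table whose identifiers map to these symbols, and all 8 had a row among 21874. The study gave male C57BL/6 mice 30 mg/kg cisplatin by intraperitoneal injection, a platinum drug that injures the proximal tubule of the kidney, and took RNA from proximal tubular cells isolated from the renal cortex. There were groups at 24, 48 and 72 h after the injection, each of 2 libraries, and a 0 h group of 2 libraries was their control. The treatment text is the same for every sample, so whether the 0 h mice received a vehicle is not stated. The labels give no age and no genetic change. Cells were isolated from cortex with no sort named. The duplicates are called biological, with no word on whether they came from different mice, and a p-value here reflects only how far such duplicates lie apart.

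An injured proximal tubule cell can lose the transporters and brush border of its mature state and take on features of an immature or mesenchymal cell, which is known as dedifferentiation. Surviving cells that divide and regain the mature state repair the tubule, and cells that stay in the altered state are described as failed repair cells, for which Vcam1 is a widely used mouse marker. Sox9, Sox4 and Pax2 are transcription factors of the developing nephron, Vcam1, Cd44 and Cd24a are cell surface proteins, Vim is a cytoskeletal protein and Akap12 is a scaffold for protein kinases.

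The promoters of 4 of the genes, Vim, Cd44, Sox4 and Pax2, were in the RefSeq table for GRCm38.p6, and they are shown for that reason alone. Any link between their motifs and the courses of the genes was not tested. Each line gives the 250 bases before the start of the gene, 5′ to 3′ on the strand of the gene. Capitals mark matches, on either strand, to the TATA box TATAAA, the CCAAT box CCAAT, the GC box GGGCGG, the AP-1 motif TGANTCA, the NF-kB motif, the TEAD motif CATTCC or the SOX motif ACAANG.
Vim promoter, chr2:13574061-13574310, plus strand: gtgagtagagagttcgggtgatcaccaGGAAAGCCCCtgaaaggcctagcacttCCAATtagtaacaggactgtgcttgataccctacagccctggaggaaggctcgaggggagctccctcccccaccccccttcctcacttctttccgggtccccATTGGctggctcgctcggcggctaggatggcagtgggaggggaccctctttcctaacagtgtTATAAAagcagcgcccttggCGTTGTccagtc
Cd44 promoter, chr2:102901666-102901915, minus strand: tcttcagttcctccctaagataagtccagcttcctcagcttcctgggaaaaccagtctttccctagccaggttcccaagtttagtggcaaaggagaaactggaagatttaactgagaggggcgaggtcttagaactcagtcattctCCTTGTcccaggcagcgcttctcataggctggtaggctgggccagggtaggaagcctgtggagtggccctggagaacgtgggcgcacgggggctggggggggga
Sox4 promoter, chr13:28953700-28953949, minus strand: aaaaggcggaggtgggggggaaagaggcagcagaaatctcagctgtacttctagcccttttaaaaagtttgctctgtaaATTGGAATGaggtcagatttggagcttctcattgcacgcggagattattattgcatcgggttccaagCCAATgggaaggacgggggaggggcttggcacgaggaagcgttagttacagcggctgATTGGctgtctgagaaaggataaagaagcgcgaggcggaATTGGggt
Pax2 promoter, first of 3 starts, chr19:44746351-44746600, plus strand: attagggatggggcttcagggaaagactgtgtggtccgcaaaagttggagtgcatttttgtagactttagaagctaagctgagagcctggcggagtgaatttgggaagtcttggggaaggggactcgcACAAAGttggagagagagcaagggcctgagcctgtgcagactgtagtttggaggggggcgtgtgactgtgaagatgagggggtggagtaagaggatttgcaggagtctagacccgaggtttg

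The Vim promoter held a TATA box 32 bases before the start, CCAAT boxes at 196 and 94 bases, an NF-kB match at 223 bases and a SOX match at 12 bases. The Sox4 promoter held 4 CCAAT boxes, at 171, 104, 47 and 8 bases before the start, and a TEAD match at 168 bases that overlaps the first of them. Cd44 and the first start of Pax2 each held a single SOX match, at 104 and 122 bases. Among all 32851 promoters of the table cut to the same length, 12.4% held the TATA box, 33.8% the CCAAT box, 32.7% the GC box, 6.75% the AP-1 motif, 1.41% the NF-kB motif, 12.6% the TEAD motif and 36.3% the SOX motif. A match is a run of letters and not a measured binding site. GC content was 58.4% for Vim, 56.4% for Cd44, 50.8% for Sox4 and 52.8%, 60.8% and 72.8% for starts 1, 2 and 3 of Pax2, against a median of 52.4%. Start 2 of Pax2 held SOX matches at 190 and 145 bases and a GC box at 28 bases before it, and start 3 held a GC box at 64 bases before it.

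Values are in FPKM, in which fragments are divided by gene length and by mapped depth, so that levels of different genes can be compared. The deposited values totalled 448667 and 452114 FPKM at 0 h, then 375186 and 348891 at 24 h, later 314173 and 317983 at 48 h, and finally 351353 and 354145 at 72 h. Libraries of a group correlated at 0.9943 to 0.997 over all rows of log2(FPKM + 1), and libraries of different groups at 0.9899 or less. The number of sequenced fragments is not known from FPKM, so no counting error can be given. Tests were made with limma on log2(FPKM + 1) over the 10757 rows that reached 1 FPKM in 2 or more libraries, and a row was called where the p adjusted by the Benjamini-Hochberg method was under 0.05. The scale understates the fold of low genes. The median over all tested rows against 0 h was -0.12 for 24 h, -0.13 for 48 h and 0.07 for 72 h, and changes are read against that shift. Gene positions below are the row spans of the deposited table, on mm10. All 3 comparisons with 0 h share the same 2 control libraries.

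Of the 8 genes, 7 were tested, and 6 of these rose at each of 24, 48 and 72 h against 0 h: Vcam1, Cd44, Vim, Sox4, Cd24a and Akap12. The share of all tested rows called higher was 25.8% at 24 h, 28.5% at 48 h and 37.6% at 72 h. Pax2 was called lower at 24 and 48 h, as were 40.0% and 42.1% of all rows, and was not called at 72 h, when 32.4% of all rows were called lower. Sox9 had no library at 1 FPKM and was left out by the filter. Vcam1 and Cd44 were under 1 FPKM in both 0 h libraries and passed the filter through later libraries, so the counts describe the genes and do not support a change in them as a set. In RNA from many cells, more cells of a type and more RNA of a gene per cell cannot be told apart. The median log2 change of the 7 was 0.86 at 24 h, 1.38 at 48 h and 2.25 at 72 h.

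**Figure D1:**
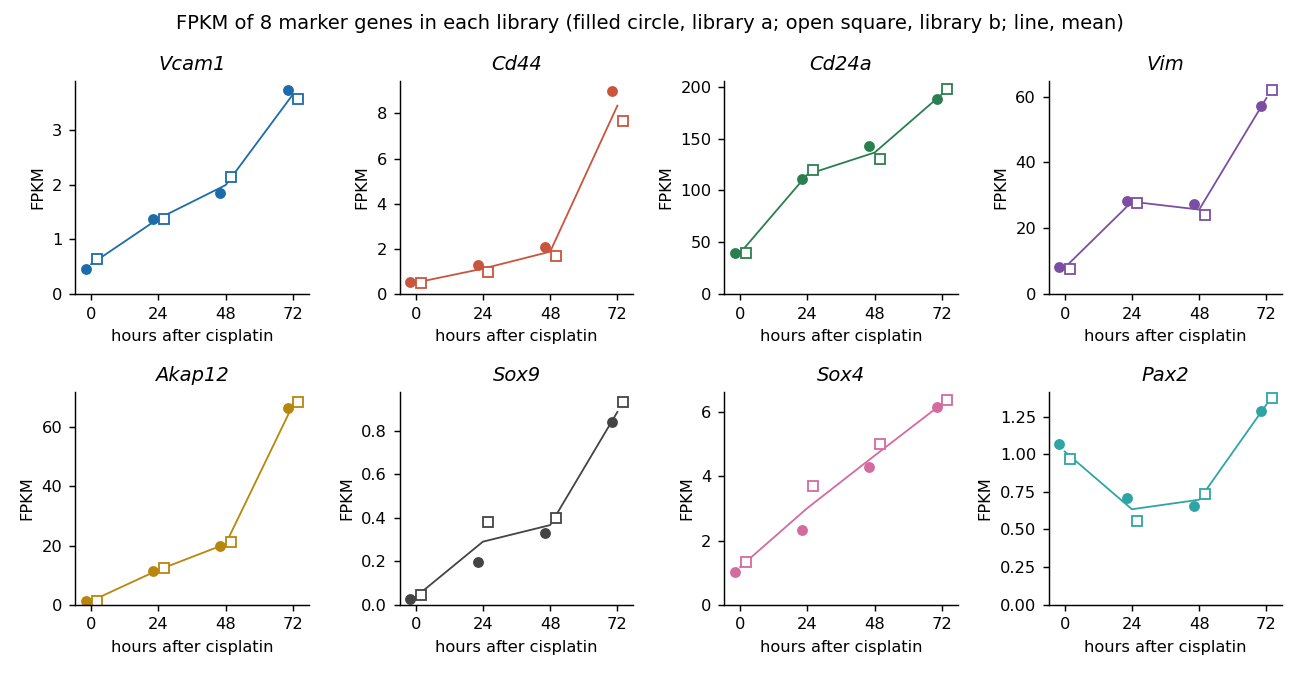
FPKM of each of the 8 genes, each in a panel with its own linear axis from 0, against hours after cisplatin; filled circles are library a, open squares library b, and the line joins the means of 2 libraries. Cd44 and Akap12 have their steepest step between 48 and 72 h, Vim differs little between 24 and 48 h, and Pax2 is lower at 24 and 48 h than at 0 h.

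Vcam1 (ENSMUSG00000027962, chromosome 3, 116109890 to 116129688, minus strand) encodes an adhesion receptor of the immunoglobulin family that binds integrin alpha 4 beta 1 on leukocytes. It had 0.461 and 0.635 FPKM at 0 h (library a, then b), then 1.38 and 1.38 at 24 h, later 1.85 and 2.14 at 48 h, and finally 3.74 and 3.57 at 72 h. Both libraries of each time lay above both of the time before, and the 24 h pair differed by less than any other pair of this gene. At 72 h it averaged 3.66 ± 0.114 FPKM, against 0.548 ± 0.123 at 0 h (SD, n = 2 each), a ratio of 6.67. The log2 change was 0.62 ± 0.10 (SE) at 24 h, 0.95 ± 0.10 at 48 h and 1.59 ± 0.10 at 72 h, with limma adjusted p of 0.000649, 3.66e-05 and 1.24e-06.

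Cd44 (ENSMUSG00000005087, chromosome 2, 102811138 to 102901850, minus strand) encodes the main receptor for hyaluronan, a sugar polymer of the matrix. It had 0.523 and 0.490 FPKM at 0 h, then 1.27 and 0.980 at 24 h, later 2.07 and 1.69 at 48 h, and finally 9.01 and 7.68 at 72 h. The 72 h libraries stood well above all others, and the steps before were small. Between 48 and 72 h it gained 82.5% of its whole increase. The log2 change of 72 h against 48 h was 1.70 ± 0.12 (SE; limma adjusted p = 1.74e-05), which placed it 69th from the top among 10757 rows. Against 0 h it was 0.49, 0.93 and 2.63 at 24, 48 and 72 h, each ± 0.12 (SE), with limma adjusted p of 0.00588, 0.000115 and 1.41e-07. The row also covers the snRNA gene Gm23731.

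Cd24a (ENSMUSG00000047139, chromosome 10, 43578460 to 43584595, plus strand) encodes a small, heavily glycosylated surface protein held by a lipid anchor and used to mark immature epithelial cells. It was the highest of the 8 at every time, with 39.7 and 39.7 FPKM at 0 h, then 111 and 120 at 24 h, later 143 and 131 at 48 h, and finally 188 and 198 at 72 h. Every time lay above the one before without overlap. Of its whole increase, 49.5% came in the first 24 h, 13.8% in the next and 36.7% in the last. The log2 change against 0 h was 1.52 at 24 h, 1.76 at 48 h and 2.25 at 72 h, each ± 0.07 (SE), with limma adjusted p of 4.7e-07, 9.08e-08 and 1.43e-08. Its row overlaps that of 1700021F05Rik on the other strand, which stayed between 2.92 and 7.79 FPKM. No source used here says whether counting took strand into account.

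Vim (ENSMUSG00000026728, chromosome 2, 13573469 to 13582826, plus strand) encodes vimentin, the intermediate filament protein of mesenchymal and endothelial cells. It had 8.27 and 7.76 FPKM at 0 h, then 28.4 and 27.8 at 24 h, later 27.3 and 24.1 at 48 h, and finally 57.2 and 62.0 at 72 h. Both 48 h libraries lay just below both 24 h libraries, and the 72 h libraries stood above all others. The step of 48 h against 24 h was -0.13 ± 0.08 on the log2 scale (SE) and was not called (limma adjusted p = 0.287). The other steps were large, at 1.69 ± 0.08 for 24 h against 0 h and 1.19 ± 0.08 for 72 h against 48 h, with limma adjusted p of 6.32e-07 and 1.52e-05. Of its gain, 65.7% came between 48 and 72 h. At 72 h against 0 h the log2 change was 2.75 ± 0.08 (SE; limma adjusted p = 1.18e-08).

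Akap12 (ENSMUSG00000038587, chromosome 10, 4266329 to 4359468, plus strand) encodes a large scaffold that ties protein kinases A and C to the membrane and cytoskeleton, and of the 8 it had the largest log2 change against 0 h at each of the 3 times. It had 1.29 and 1.26 FPKM at 0 h, then 11.3 and 12.3 at 24 h, later 19.8 and 21.3 at 48 h, and finally 66.4 and 68.6 at 72 h. The libraries of each time agreed closely, and no time overlapped another. The mean was 67.5 ± 1.56 FPKM at 72 h and 1.28 ± 0.0192 at 0 h (SD, n = 2 each), a ratio of 52.9. On the log2 scale it was 2.49, 3.24 and 4.91 at 24, 48 and 72 h against 0 h, each ± 0.08 (SE), with limma adjusted p of 8.7e-08, 1.56e-08 and 6.17e-10. At 72 h it was the 8th highest change of 10757 rows. The row also covers the lncRNA gene Gm40592.

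Sox9 (ENSMUSG00000000567, chromosome 11, 112782224 to 112787760, plus strand) encodes a transcription factor of progenitors that injured proximal tubule cells switch on in mouse models. It was the lowest of the 8 in every library, with 0.0262 and 0.0464 FPKM at 0 h, then 0.199 and 0.382 at 24 h, later 0.332 and 0.401 at 48 h, and finally 0.840 and 0.935 at 72 h. The 24 and 48 h libraries overlapped, and no other pair of times did. In a fit with no filter on low values, over 19299 rows, the log2 change against 0 h was 0.31, 0.40 and 0.86 at 24, 48 and 72 h, each ± 0.09 (SE). The limma adjusted p was 0.0292, 0.00974 and 0.000309, and the share of rows called higher in that fit was 15.8%, 20.1% and 25.3%. A ratio of means of 24.4 at 72 h rests on a 0 h level near 0 and is given as a description.

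Sox4 (ENSMUSG00000076431, chromosome 13, 28948923 to 28953977, minus strand) encodes a related transcription factor that acts in progenitors of many tissues, the nephron among them. It had 1.01 and 1.34 FPKM at 0 h, then 2.32 and 3.71 at 24 h, later 4.30 and 4.999 at 48 h, and finally 6.15 and 6.37 at 72 h. Its gain was spread evenly, with 36.1% in the first day, 32.2% in the second and 31.7% in the third. The 24 h libraries were the furthest apart of any of its pairs. The log2 change against 0 h was 0.86, 1.38 and 1.74 at 24, 48 and 72 h, each ± 0.16 (SE), with limma adjusted p of 0.00135, 6.28e-05 and 1.32e-05. The step of 72 h against 48 h, 0.36 ± 0.16, was not called (limma adjusted p = 0.0936). Its row lies inside that of Exoc2 on the same strand, which had 5.52 to 12.4 FPKM, and it overlaps the lncRNA gene Gm46405, so fragments of these cannot be told apart from its own.

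Pax2 (ENSMUSG00000004231, chromosome 19, 44745071 to 44838448, plus strand) encodes a paired-box factor needed to form the kidney. It had 1.07 and 0.966 FPKM at 0 h, then 0.712 and 0.557 at 24 h, later 0.657 and 0.739 at 48 h, and finally 1.29 and 1.37 at 72 h. It went a different way from the other genes, with the 24 and 48 h libraries below and the 72 h libraries above all of the 0 h libraries. The log2 change was -0.31 ± 0.10 (SE) at 24 h and -0.25 ± 0.10 at 48 h against 0 h, with limma adjusted p of 0.0223 and 0.0474. Both calls were lost when every library was set to the same median, at -0.18 (limma adjusted p = 0.118) and -0.11 (limma adjusted p = 0.32). The 24 h call was also lost without 0 h library a, 0 h library b or 24 h library b, and the 48 h call was lost when any 1 library of the 0, 48 or 72 h groups was left out. At 72 h the change was 0.21 ± 0.10 and was not called (limma adjusted p = 0.0884). The change of 72 h against 24 h, 0.51 ± 0.10, was called (limma adjusted p = 0.00192). Its row overlaps a new locus on the other strand that had at most 0.438 FPKM, and also Mir6405 and 1700039E22Rik.

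**Figure D2:**
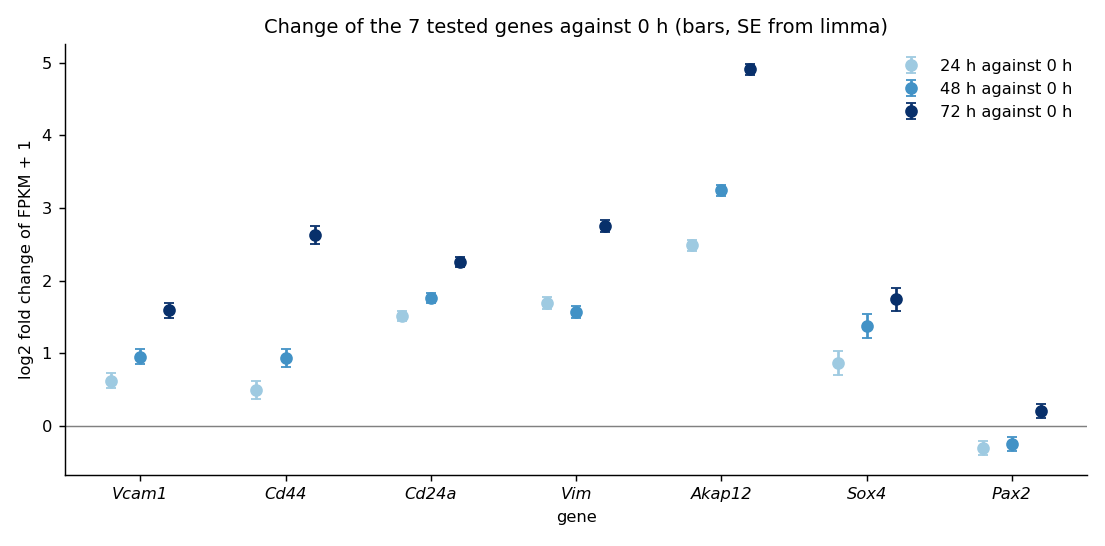
Log2 fold change of FPKM + 1 at 24, 48 and 72 h against 0 h for the 7 tested genes, with bars of 1 SE from limma. Akap12 reaches 4.91 and Vim 2.75 at 72 h, and Pax2 lies below 0 at 24 and 48 h.

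Over all 8 libraries, an exact permutation test of the 4 groups gave p = 0.00952 for Vcam1, Cd44, Vim, Sox4, Cd24a and Akap12, the smallest that 105 assignments allow, and p = 0.019 for Sox9 and Pax2. It was run for these 8 genes only. The share of all rows at the smallest p is therefore not known, and the test does not set these genes apart from other rows. With 2 libraries against 2 the smallest exact p is 0.333, so single steps rest on limma, which pools the spread over rows and groups. Between 24 and 48 h, 5 of 7 genes were called higher, against 11.2% of all rows: Vcam1, Cd44, Sox4, Cd24a and Akap12. The steps of the 5 were 0.24 to 0.75 on the log2 scale. With a single library left out the count was 1 to 3. Akap12 kept its call whichever library was left out, Cd44 lost it without 24 h library b or 48 h library a, and Cd24a kept it only without 24 h library b or 48 h library b. Sox4 kept its call only without 24 h library b, and Vcam1 lost it whichever of the 8 was left out. Between 48 and 72 h, 6 of 7 were called higher, all but Sox4, against 37.2% of rows; Sox4 was called there without either of the 24 h libraries (limma adjusted p of 0.0271 and 0.0277). Pax2 lost its call at 72 h against 48 h when every library was set to the same median, at 0.25 (limma adjusted p = 0.0586), against 0.46 as reported. From 24 to 72 h all 7 were called higher, against 37.7%. Those 2 comparisons had a median over all tested rows of 0.18 and 0.14.

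The order of the levels shifted over time. At 0 h it was Cd24a, Vim, Akap12, Sox4, Pax2, Vcam1, Cd44 and Sox9, and Akap12, Sox4 and Pax2 overlapped their neighbours, as did Vcam1 and Cd44. At 72 h it was Cd24a, Akap12, Vim, Cd44, Sox4, Vcam1, Pax2 and Sox9, with no overlap between neighbours. Akap12 passed Vim between 48 and 72 h, with 67.5 against 59.6 FPKM on average at 72 h. Cd44 lay below Sox4 and Vcam1 at 24 h and above both at 72 h. At 72 h 1.01% of rows were above Cd24a and 3.07% above Akap12, where 42.6% were above Akap12 at 0 h.

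**Figure D3:**
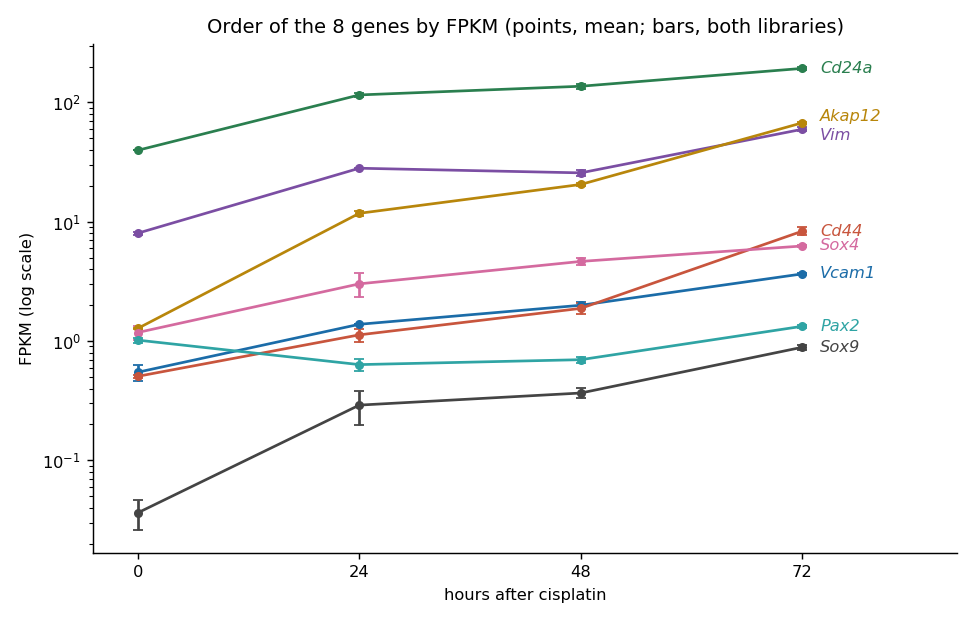
Mean FPKM of the 8 genes on a log axis against hours after cisplatin, with bars that span both libraries. Cd24a is highest and Sox9 lowest at every time, the Akap12 line crosses that of Vim between 48 and 72 h, and the Cd44 line crosses that of Sox4.

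Markers of other cell types also changed over these times, not all in 1 direction. At 72 h against 0 h, 9 of 9 tested endothelial markers, 8 of 9 of fibroblasts, pericytes and mesangium, 6 of 6 of macrophages, 7 of 7 of neutrophils and 6 of 6 of all leukocytes were called higher, while 9 of 9 of the proximal tubule were called lower. All 7 tested neutrophil markers, and Itgam and Mrc1 of macrophages, were under 1 FPKM in both 0 h libraries. They passed the filter only through later libraries, so their calls add no support to these counts. The summed level of the endothelial markers was 191 and 195 FPKM at 72 h and 91.3 and 88.4 at 0 h, and that of fibroblasts, pericytes and mesangium was 277 and 276 at 72 h, against 72.4 and 68.8 at 0 h. Macrophage markers summed to 147 and 150 FPKM at 72 h, against 40.1 and 34.6 at 0 h, and those of all leukocytes to 95.0 and 91.8 at 72 h, against 26.0 and 21.6 at 0 h. Neutrophil markers summed to 79.2 and 76.6 FPKM at 72 h, against 1.08 and 1.31 at 0 h. The 24 and 48 h libraries were at 100 to 124 FPKM for endothelium, 96.4 to 158 for fibroblasts, pericytes and mesangium, 39.4 to 48.7 for macrophages, 24.5 to 36.4 for all leukocytes and 27.1 to 32.5 for neutrophils. At 72 h, 6 of 6 markers of the thick ascending limb were called lower, as were 4 of 8 of intercalated cells, with 1 called higher. Their sums were 181 and 182 FPKM for the thick ascending limb at 72 h, against 511 and 514 at 0 h, and 32.3 and 36.0 for intercalated cells at 72 h, against 54.8 and 58.2 at 0 h. Podocyte markers were called higher in 6 of 8 and lower in 1, and summed to 80.3 and 81.5 FPKM at 72 h, against 56.1 and 51.3 at 0 h. Collecting duct principal cell markers were called higher in 2 of 8 and lower in 3, and summed to 222 and 238 FPKM at 72 h, against 158 and 140 at 0 h. Parietal epithelial markers other than Akap12 summed to 47.7 and 48.3 at 72 h and 12.7 and 14.2 at 0 h, most of it Cldn1. The 6 lymphocyte markers with rows of their own were each under 1 FPKM in every library, and Lum and Postn of the fibroblast list and Ncam2 of the parietal list were too. No marker was at 0 in all 8 libraries. The proximal tubule sum was 581 and 590 FPKM at 72 h and 4870 and 5260 at 0 h. Vim, Vcam1, Cd44 and Akap12 are also made by endothelial, stromal or immune cells, and the part of those cells in the rises above was not tested.

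**Figure D4:**
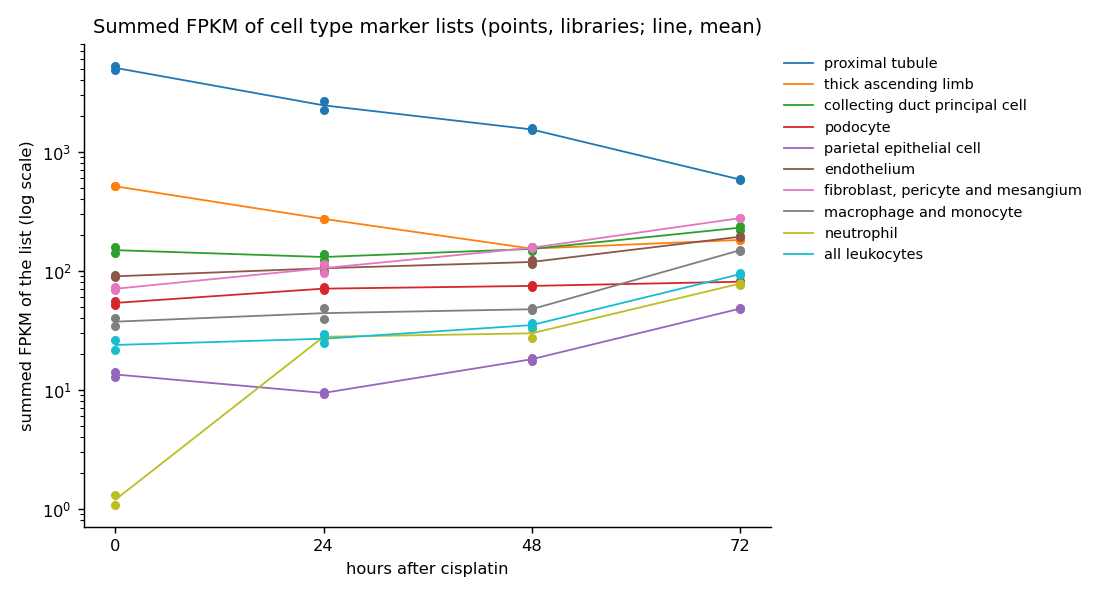
Summed FPKM of 10 marker lists on a log axis against hours after cisplatin; points are libraries and lines join their means. The proximal tubule sum is 581 and 590 FPKM at 72 h, against 4870 and 5260 at 0 h, and the stromal, endothelial and leukocyte sums are higher at 72 h than at 0 h.

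The genes that work with the surface proteins were followed from fixed lists, chosen with earlier results of these data known. Over all tested rows, 37.6% were called higher and 32.4% lower at 72 h against 0 h. The list counts at that time, here and below, are read beside those shares. The Vcam1 list joined its adhesion partners with genes of related adhesion between endothelium and leukocytes, such as Icam2, Itgal, Itgb2 and Sele. Of the 10 genes tested, 8 were called higher at 72 h and 1 lower. The median log2 change of the 10 was 0.75, against 0.07 over all tested rows. Itgal and Sele were under 1 FPKM in both 0 h libraries and passed the filter only through later libraries. Itgal lost its call at 72 h with quantile normalisation, at 0.24 (limma adjusted p = 0.0989). In the other scalings tried, 7 to 9 of the 10 were called higher at 72 h and 1 lower. Msn, the membrane to actin linker moesin, averaged 66.6 FPKM at 72 h and 16.4 at 0 h, a log2 change of 1.96 ± 0.09 (SE; limma adjusted p = 1.33e-07). Itgb1, the beta 1 integrin chain, averaged 123 FPKM at 72 h and 55.4 at 0 h, and Itgb2, the leukocyte beta 2 chain, averaged 7.15 at 72 h and 1.59 at 0 h. Both rose (limma adjusted p of 2.71e-07 and 2.08e-06). Itga9, an integrin chain that also binds Vcam1 and whose row reaches past its gene or is nested with another, averaged 8.47 FPKM at 72 h and 2.07 at 0 h, and rose (limma adjusted p = 1.16e-06).

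The hyaluronan and Cd44 list had 5 of 12 tested genes higher and 3 lower at 72 h, against 37.6% and 32.4% of all tested rows, so its split was not unusual. In 3 other scalings 4 to 8 were higher and 2 to 4 lower. Has3, among the 5, was under 1 FPKM in both 0 h libraries and passed the filter only through later libraries. Its call at 72 h was lost with quantile normalisation, at -0.067 (limma adjusted p = 0.558). Spp1, the secreted matrix protein osteopontin that binds Cd44, averaged 2220 FPKM at 72 h and 267 at 0 h, a log2 change of 3.05 (limma adjusted p = 2.67e-09). Mmp14, a membrane protease that cleaves Cd44, averaged 7.79 FPKM at 72 h and 1.52 at 0 h and rose. Stab2, a scavenger receptor for hyaluronan, averaged 0.125 FPKM at 72 h and 2.35 at 0 h and fell by 1.57 on the log2 scale (limma adjusted p = 8.54e-07). The progenitor surface list held 5 tested genes besides Cd24a, of which 1 was higher and 2 lower at 72 h, with 1 or 2 higher and 1 or 2 lower in 3 other scalings. Cd9, a membrane tetraspanin, rose with an average of 122 FPKM at 72 h and 40.8 at 0 h. Prom1, the marker prominin 1, averaged 13.7 FPKM at 72 h and 12.8 at 0 h and did not pass the test, although it fell at 24 h and 48 h, at 5.21 and 5.13 FPKM. Lgr4, a receptor for R-spondins, averaged 39.7 FPKM at 72 h and 82.0 at 0 h and fell.

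Vim moved in a list where every tested gene was higher at 72 h: 9 of 9 other intermediate filament, lamin and linker genes, with a median of 1.21. The same held in 3 other scalings, and the rows of Prph and Plec in it also span other genes. Krt18 and Krt19, keratins of simple epithelia, had the largest changes, with 82.5 FPKM at 72 h and 4.31 at 0 h for Krt18, and 29.1 at 72 h and 0.863 at 0 h for Krt19. Their log2 changes were 3.98 and 4.03 (limma adjusted p of 2.72e-09 and 4.58e-08). Lmna, a protein of the nuclear lamina, averaged 64.3 FPKM at 72 h and 19.7 at 0 h and rose. The mesenchymal list had 10 of 14 tested genes higher and 1 lower at 72 h, with 10 to 13 higher and 0 or 1 lower in 3 other scalings. Of the 14, 2 were higher and 6 lower at 24 h, when 40.0% of all tested rows were lower. In the 3 other scalings 2 were higher and 4 or 5 lower at 24 h. Acta2, smooth muscle actin, averaged 24.3 FPKM at 72 h and 3.96 at 0 h, and Fn1, the matrix protein fibronectin, averaged 21.3 at 72 h and 4.35 at 0 h. At 24 h Fn1 averaged 2.71 FPKM and was called lower (limma adjusted p = 0.00281). Another 3 genes of the list are named after their values were seen. Cdh1, the epithelial cadherin, was among the 10 called higher at 72 h, at 0.55 on the log2 scale (limma adjusted p = 0.000114), and Cdh2, the cadherin usual in mesenchymal cells, was at 0.09 and not called (limma adjusted p = 0.436). The lower gene was Ctnnb1, a cadherin-bound protein whose row reaches past its gene or is nested with another, at -0.27, and it was called higher with quantile normalisation, at 0.29 (limma adjusted p = 0.00265).

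Akap12 had the largest log2 change of its list at 72 h. Of 12 other kinase A anchors and subunits tested, 4 were higher and 3 lower at 72 h, with 4 to 7 higher and 2 to 4 lower in 3 other scalings. Of the 12, 2 were higher and 7 lower at 24 h, when 40.0% of all tested rows were lower. In the 3 other scalings 2 were higher and 4 or 5 lower at 24 h. Akap1, the anchor of the mitochondrial surface, averaged 12.6 FPKM at 72 h and 26.9 at 0 h and fell by 1.04 on the log2 scale (limma adjusted p = 2.82e-06). Prkar1a, a regulatory subunit, averaged 82.0 FPKM at 72 h and 44.7 at 0 h and rose by 0.86.

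The transcription factor lists did not move as one. Of 4 other Sox genes tested, Sox17 of endothelium, whose row reaches past its gene or is nested with another, was higher at 72 h and Sox6 lower, with Sox13 and Sox18 not past the threshold. Among 10 kidney development genes besides Pax2, 4 were higher and 4 lower at 72 h, with 4 higher and 2 to 4 lower in 3 other scalings. Pax8, the paired-box partner of Pax2 in the nephron, followed a course like it, with 26.2 FPKM at 0 h, then 13.8 at 24 h, later 15.5 at 48 h and finally 35.5 at 72 h. Relative to 0 h its log2 change was -0.88 at 24 h, -0.72 at 48 h and 0.42 at 72 h (limma adjusted p of 1.67e-05, 4.19e-05 and 0.00125), and its row reaches past its gene or is nested with another. Cdh6, an early nephron cadherin, averaged 4.84 FPKM at 72 h and 0.925 at 0 h and rose by 1.60.

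The list of genes reported in failed repair cells, without Vcam1, had 12 of 13 tested genes higher and 1 lower at 72 h, with the same counts in 3 other scalings. Over all tested rows the shares were 37.6% higher and 32.4% lower. Of the 13, 5 were under 1 FPKM in both 0 h libraries: Ccl2, Nfkb2, Havcr1, Cxcl2 and Traf1. They passed the filter only through later libraries, so their calls add no support to the count. The rows of Il34 and Tpm1 also span other genes. Havcr1, the injury receptor KIM-1, averaged 261 FPKM at 72 h and 0.297 at 0 h, though its row reaches past its gene or is nested with another. The chemokine genes Ccl2 and Cxcl2 averaged 11.0 and 8.95 FPKM at 72 h and 0.402 and 0.0764 at 0 h. The YAP and TEAD list had 14 of 16 higher and 1 lower at 72 h, against 37.6% and 32.4% of all tested rows. The lower row, of Mob1b, also spans other genes, as do the rows of Lats1 and Mob1a among the 14. Tead4 and Ankrd1 were under 1 FPKM in both 0 h libraries. They passed the filter only through later libraries, so their calls add no support to the count. The list was led by Ccn1 and Ccn2, matricellular proteins that averaged 52.0 and 63.2 FPKM at 72 h and 6.25 and 6.59 at 0 h. The differentiated proximal tubule list had 17 of 17 tested genes lower at 72 h, with a median of -2.96, and the same count in 3 other scalings. It holds every proximal tubule marker counted above, so the count here and the marker count are not separate results. The row of Slc22a6 in it also spans other genes. Gatm, an enzyme of creatine synthesis, averaged 12.3 FPKM at 72 h and 323 at 0 h, and Slc34a1, the phosphate transporter of the brush border, averaged 94.2 at 72 h and 1440 at 0 h.

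**Figure D5:**
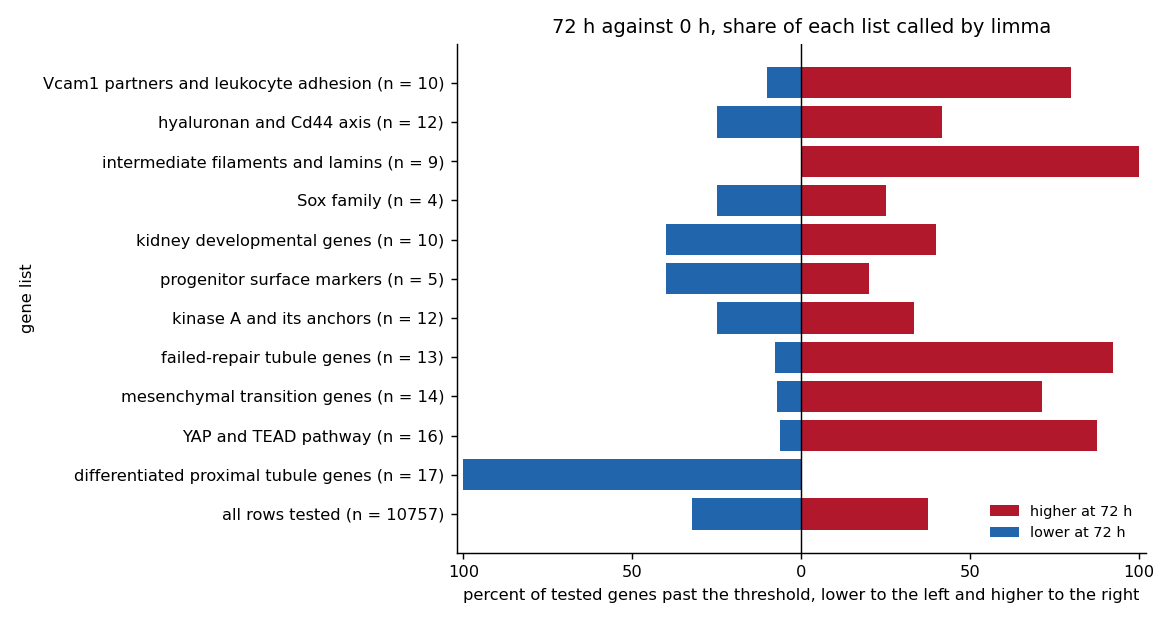
Percent of the tested genes of each list called higher (right) or lower (left) by limma at 72 h against 0 h, with all tested rows at the bottom. The filament and lamin list is higher in 9 of 9 genes and the differentiated proximal tubule list lower in 17 of 17, while 37.6% of all rows are higher and 32.4% lower.

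For 7 of the genes the rows with the most similar course over the 8 libraries were sought by Pearson's r of log2(FPKM + 1), as a description with no p, since the 4 times shape every r. Akap12 was nearest to Plat, the tissue plasminogen activator (r = 0.9994). Cd24a was nearest to a row of Bax merged with Dhdh (r = 0.9987) and to Krt18 (r = 0.9981). Cd44 was nearest to P2ry6 (r = 0.9974), Vcam1 to Esyt2 (r = 0.9967), Sox4 to Kif2a (r = 0.9972) and Sox9 to Cfp (r = 0.9924). Pax2 was nearest to Msi2 (r = 0.9969), which averaged 29.8 FPKM at 0 h, 22.7 at 24 h, 24.2 at 48 h and 34.8 at 72 h. Between 142 rows, for Pax2, and 582, for Akap12, had r above 0.95, so such likeness is common here.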

How the data were processed

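RNA was measured in 8 libraries of isolated mouse proximal tubules, 2 at each of 4 times. Ribosomal RNA was removed and libraries were made with a kit the labels name for small RNA, per the labels' protocols. The deposited gene table holds FPKM values made by the authors, per the file headers. The deposited circRNA table holds whole-number counts per back-splice; none of its 2163 entries touched one of the 8 genes, so it was not used further, nor were another 8 columns with a second measure. Bowtie 0.12.2, TopHat2, Cufflinks and the build mm10 are listed by the submitters' processing notes without saying which step each served. Columns carry letters, not replicate numbers, so each was assigned to its time only. Identifiers were matched to symbols for 19742 of 21874 rows, and rows were set against RefSeq gene spans with a tolerance of 2000 bases. The spans of all 8 rows kept to those of their own genes within that tolerance. This does not separate overlapping rows, as the Sox4 row lies inside that of Exoc2 on the same strand.

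limma 3.58.1 in R 4.3.3 (intensity trend, robust) was run once over all libraries on log2(FPKM + 1), keeping rows that reached 1 FPKM in 2 or more libraries, 2-sided, with Benjamini-Hochberg adjustment over all rows and a threshold of 0.05. The procedure was tested on simulated data. Marker sums leave out rows that span another gene. The members, lists and tests were chosen with earlier results of these data known. Named genes are the 8, up to 4 genes of each list by smallest p against 0 h, and the nearest rows by Pearson's r; some genes that this names are not reported here. Promoters are from RefSeq for GRCm38.p6 and were found for 4 of the 8 genes. Alternatives were other scalings, pseudocounts of 0.1 and 0.5, filters of none and 5 FPKM, rows that keep to their own gene, another variance model, only the groups compared, and each library left out.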

Additional observations from a re-analysis of the deposited data

Results flagged for a closer look

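For 7 genes the effect at 72 h and the effect at 24 h, both against 0 h, differed, by the direct test of 72 h against 24 h with limma. The difference was 0.967 for Vcam1, 2.13 for Cd44, 1.06 for Vim, 0.877 for Sox4, 0.735 for Cd24a and 2.42 for Akap12 on the log2 scale, with limma adjusted p from 9.45e-08 to 0.00156. For Pax2 it was 0.513 (limma adjusted p = 0.00192), with a negative effect at 24 h and a positive one at 72 h. In that comparison 37.7% of all tested rows were called higher, and the median over all tested rows was 0.138. Each of the 7 was higher in both 72 h libraries than in both 24 h libraries. The share of all rows that did the same is not given here, so this describes the genes only.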

How the results depend on the processing

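No log2 change that was called for one of the 8 genes changed direction in the settings tried, though changes not called for Pax2 (72 h against 0 h and 48 h against 24 h) and Vim (48 h against 24 h) did. Ctnnb1 of the mesenchymal list was called in opposite directions at 48 h (-0.30 as reported, 0.35 with quantile normalisation) and at 72 h (-0.27 and 0.29). Of 744 values for single genes, 683 kept their side of the threshold, 56 lost a call and 5 gained one. The 6 rises against 0 h kept their calls in every setting where the gene was tested. The exceptions were Pax2 against 0 h and the steps between successive times. The count of genes called at 48 h against 24 h, 5 as reported, was 3 with quantile normalisation, with a pseudocount of 0.1 or 0.5 and without trend or robust weights, 1 with no filter and 1 with only the compared groups, and 1 to 3 with a library left out; the cause was not tested. Rows called at 48 h against 24 h numbered 1823 to 2870 with a library left out, lowest without 48 h library a and 1839 without 48 h library b, against 3046. With only the rows whose span stays within their own gene, fewer were tested and 4164, 4444 and 4484 were called at 24, 48 and 72 h against 0 h, 1716 at 48 h against 24 h, 3129 at 72 h against 48 h and 3715 at 72 h against 24 h. Pax2 at 24 h lost its call without 0 h library a, 0 h library b or 24 h library b, and at 48 h when any 1 library of the 0, 48 or 72 h groups was left out. Pax2 at 72 h against 48 h lost its call with equal medians, at 0.25 (limma adjusted p = 0.0586). Pax2 at 72 h gained a call with totals set equal without mitochondrial rows, at 0.35 (limma adjusted p = 0.00863). Scaling moved the split of calls over all rows and in places turned it. With that total, 3772 rows were higher and 3208 lower at 24 h (2772 and 4304 as reported), 4958 and 2851 at 48 h (3061 and 4524), 5427 and 2512 at 72 h (4049 and 3486), 2789 and 963 at 48 h against 24 h (1200 and 1846) and 2907 and 1979 at 72 h against 48 h (3999 and 1212). With quantile normalisation 1576 were higher and 1562 lower at 48 h against 24 h, 2426 and 2465 at 72 h against 48 h and 3065 and 3180 at 72 h against 24 h (4053 and 2125). With equal medians the splits were 2224 and 2580 at 72 h against 48 h and 2849 and 3417 at 72 h against 24 h.

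No paired analysis was possible because the columns carry letters and not the replicate numbers of the labels. The circRNA alternatives were not run, since no circRNA touches one of these genes. Depth is unknown from FPKM, which limits the levels under 1 FPKM, above all Sox9.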
